A study of Caenorhabditis elegans with 60 samples.

Results

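Gene expression was compared in the nematode Caenorhabditis elegans after exposure to 0.25 or 0.125 g/L HFPO-DA, a fluorinated ether carboxylic acid that serves as a processing aid for fluoropolymers. The 8 libraries, 4 at each concentration, were chosen by their labelled concentration from the 60 libraries of the series, and were set against 36 pooled libraries at 0 g/L and at the 8 concentrations from 12.5 µg/L to 62.5 mg/L, called lower below. All 44 libraries came from whole wild-type worms of the N2 Bristol strain, in wells of about 1000 pooled animals. Synchronised first-stage larvae were exposed for 48 h in shaken liquid culture with Escherichia coli HB101 as food, so every library is of the same age and genotype, and those at 0 g/L received the medium alone. Wells of 12-well plates were assigned to concentrations at random, and RNA with poly(A) tails was sequenced shallowly. Replicates are wells, and no label says that they came from separate cultures, so the p-values concern the spread between wells. The deposited values already carry a factor of the authors for each gene and replicate number. The p-values and intervals therefore measure the spread left after that scaling, for which the main fits make no allowance.

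Cytochrome P450 enzymes insert oxygen into foreign compounds and into the body's own lipids, the first step by which an animal makes a chemical easier to excrete. Conjugating enzymes such as UDP-glucuronosyltransferases and glutathione S-transferases then attach polar groups, and ABC transporters carry products out of cells. In worms much of this defence is run by the intestine, under nuclear hormone receptors that respond to small molecules.

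Reads recovered from the deposited values numbered 1272536 to 1773114 in the libraries at 0.25 g/L, 1279331 to 4522107 at 0.125 g/L and 462117 to 2895556 in the lower libraries. The deepest library was 0.125 g/L replicate 4, and the shallowest was 15.6 mg/L replicate 4. Of the defining markers of intestine, body muscle, pharynx, neurons, hypodermis, germ line, sperm, oocytes and embryos, none of those measured was at 0 reads over these libraries. Not among the measured genes were rgef-1 of neurons, dpy-7 of hypodermis, gld-1 of the germ line and spe-9 and spe-11 of sperm. The embryo markers med-1, end-1 and end-3 were not measured either. Summed marker values lay within the range of the lower libraries in all 8 libraries for 7 of these 9 lists, and 1 library lay outside it for body muscle and 1 for embryos. The body muscle sum was 1617 to 2201 at 0.25 g/L, 1917 to 2583 at 0.125 g/L and 793 to 2477 in the lower libraries. In such bulk samples fewer cells of a type and less RNA per cell cannot be told apart.

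The question of the first comparison was which transcripts differ at 0.25 and 0.125 g/L together from the lower concentrations. A single gene of 10293 tested was called, cyp-13A7, a cytochrome P450 gene, which was higher (limma, Benjamini-Hochberg adjusted p under 0.05; 0.00972% of genes tested). No gene was called lower. At an unadjusted p under 0.05 there were 163 higher genes (1.58%) and 157 lower genes (1.53%), 320 in all (3.11%), and voom on the recovered reads called 2 genes, cyp-13A7 and its neighbour cyp-13A6. The median log2 fold change of all genes was 0.01. Against the 4 libraries at 0 g/L alone limma called 0 genes (460 at an unadjusted p under 0.05), with the log2 fold change of cyp-13A7 at 1.45, against 1.47 with all 36 lower libraries. Its exact permutation p against 0 g/L was 0.0121, and its reads per unit of size factor were 27.5 times those at 0 g/L, where 1 read was held (95% exact counting interval 4.77 to 1101). Without 0.25 g/L replicate 4 limma called 2 genes, cyp-13A7 and cyp-13A6.

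The cyp-13A7 gene (CELE_T10B9.10) lies on chromosome II at 9803620 to 9805513 of WBcel235. Its deposited values at 0.25 g/L were 10.3, 21.0, 16.3 and 13.4 in replicates 1 to 4. At 0.125 g/L they were 7.95, 2.60, 10.4 and 3.76. In the 36 lower libraries they ran from 2.31 to 5.10 with a median of 2.55. All 4 libraries at 0.25 g/L were above all 36 lower libraries, while at 0.125 g/L replicates 1 and 3 were above them and replicates 2 and 4 lay within their range. Libraries with 0 reads still carry a deposited value: in the 30 lower libraries with 0 reads of cyp-13A7 it was 2.31 to 2.97. The highest lower value, 5.10, was in 15.6 mg/L replicate 4, the shallowest library, and rests on 1 read. No other lower value of cyp-13A7 reached the minimum of 5 used to choose genes for testing. The gene thus met that minimum almost only through libraries at 0.125 g/L and above.

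The reads were recovered from those same values, so they show what the values rest on and are no separate support. At 0.25 g/L the 4 libraries held 8, 17, 12 and 13 reads of cyp-13A7. At 0.125 g/L they held 5, 0, 8 and 5 reads, the last of these in the deepest library. The 36 lower libraries held 6 reads in all, at most 1 in a library. Per unit of size factor, reads of cyp-13A7 were 78.2 times those of the lower libraries at 0.25 g/L (95% exact counting interval 33.5 to 223) and 20.2 times at 0.125 g/L (7.69 to 62.2). The intervals cover counting error only.

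The log2 fold change of cyp-13A7, on the scale of log2(value + 1), was 1.47 ± 0.12 (SE; limma adjusted p = 1.35e-12) for both concentrations against lower, and the value was above the lower median in 8 of 8 libraries, of which 0.125 g/L replicate 2 held 0 reads. An exact permutation test over libraries, two-sided as 2 times the smaller tail, gave p = 5.76e-07. Permutation p-values here and in the other paragraphs are not adjusted over genes. They were computed only for genes picked from these same values, so they are no separate support. The added 1 and the floor of the deposited values make this fold smaller than the ratio of reads: voom on reads gave 3.25. The SE is pooled over the 44 libraries, of which 30 lower ones held 0 reads of cyp-13A7 and 29 held 0 of cyp-13A6. That floor narrows the spread of the lower libraries, and with it the SE of both genes in each comparison.

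**Figure D1:**
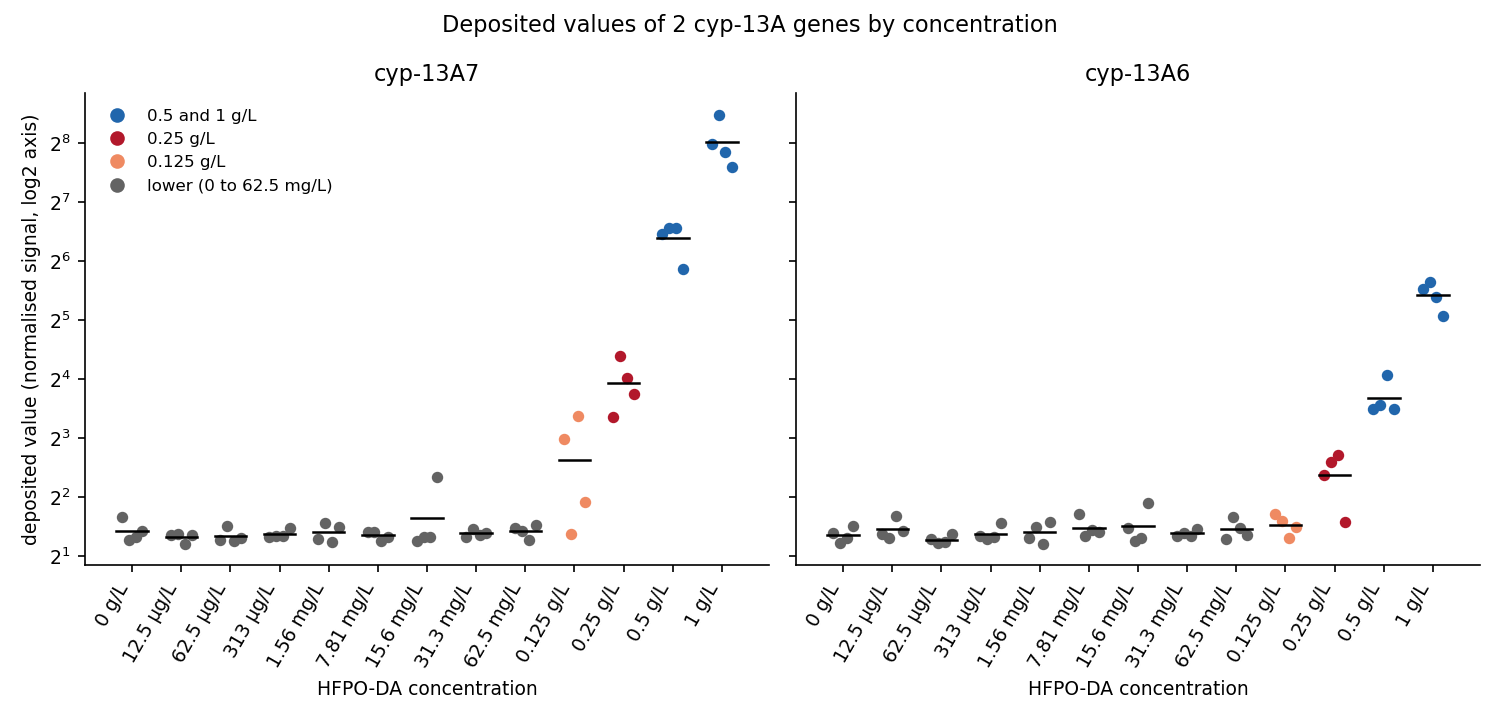
Deposited values (normalised signal, log2 axis) of cyp-13A7 and cyp-13A6 in each library, by HFPO-DA concentration from 0 to 1 g/L, with a black line at the mean of the 4 libraries. All 4 cyp-13A7 values at 0.25 g/L sit above the highest lower value of 5.10, and those at 0.125 g/L range from 2.60 to 10.4.

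The second comparison took 0.25 g/L by itself. At this concentration 2 genes were called higher and none lower among 10293 tested (limma; 0.0194% called), with 176 higher (1.71%) and 177 lower (1.72%) at an unadjusted p under 0.05 (353 genes, 3.43%). Both called genes belong to the cyp-13A cluster, a row of closely related P450 genes on chromosome II. For cyp-13A7 the mean was 15.2 ± 4.57 at 0.25 g/L (SD, n = 4), against 2.66 ± 0.46 in the lower libraries (SD, n = 36). Its log2 fold change was 2.11 ± 0.16 (SE; limma adjusted p = 1.20e-13), with an unadjusted exact permutation p of 2.19e-05, the smallest that 4 libraries against 36 can give. Of all genes tested, cyp-13A7 was the 1 gene with all 4 libraries at 0.25 g/L above all 36 lower libraries (0.00972%), and ZC247.2 was the 1 gene with all 4 below them (0.00972%).

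The adjacent gene cyp-13A6 (CELE_T10B9.3, chromosome II, 9800758 to 9802821, WBcel235) was the other called gene. Its values at 0.25 g/L were 5.21, 6.07, 6.59 and 3.00, against 2.31 to 3.75 with a median of 2.57 in the lower libraries. Replicates 1 to 3 were above every lower library, and replicate 4 lay among them. The highest lower value, 3.75, was in 15.6 mg/L replicate 4, which held 0 reads of the gene. These values rest on 3, 4, 4 and 1 reads at 0.25 g/L, against 8 reads in all 36 lower libraries, a ratio of 14.1 per unit of size factor (95% exact counting interval 5.29 to 39.7). The log2 fold change was 0.73 ± 0.12 (SE; limma adjusted p = 0.00179), and the unadjusted exact permutation p was 0.000109. Replicates 1 to 3 held its only values of at least 5 among the 44 libraries. It therefore met the minimum for testing only with the libraries at 0.5 to 4 g/L, outside this comparison.

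With the 4 libraries at 0 g/L in place of the 36, limma called 0 genes (355 at an unadjusted p under 0.05), with cyp-13A7 at a log2 fold change of 2.09 (limma adjusted p = 0.0550) and cyp-13A6 at 0.76 (limma adjusted p = 0.992); the exact permutation p was 0.0286 for each, the smallest that 4 against 4 allows. The call of cyp-13A6 was lost without 0.25 g/L replicate 2 (log2 fold change 0.65, limma adjusted p = 0.140) or replicate 3 (0.62, adjusted p = 0.257), leaving 1 called gene. With a minimum value of 20, which also left 1, its fold was the same and the adjusted p was 0.354.

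Below the threshold at 0.25 g/L, cyp-33C2, another cytochrome P450 gene, had values of 4.98, 4.42, 5.68 and 5.29, against 2.30 to 4.77 in the lower libraries. Replicates 1, 3 and 4 were above all lower libraries, and the log2 fold change was 0.59 ± 0.14 (SE; limma adjusted p = 0.206). These values rest on 3, 2, 3 and 4 reads, against 30 reads in all 36 lower libraries. T16G1.6 had 10.9, 11.0, 18.2 and 15.8 at 0.25 g/L, against 2.98 to 15.6 in the lower libraries, and its log2 fold change was 0.97 ± 0.23 (SE; limma adjusted p = 0.206). Voom on the reads called 4 genes at 0.25 g/L, cyp-13A7, cyp-13A6, T16G1.6 and K12D9.1, the last with 8 reads at 0.25 g/L, against 11 in the 36 lower libraries.

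ZC247.2 had 7.11, 7.18, 5.67 and 4.35 at 0.25 g/L, on 6, 5, 3 and 2 reads, against 7.23 to 17.6 in the lower libraries. Its log2 fold change was -0.69 ± 0.16 (SE; limma adjusted p = 0.206), so it did not pass the test.

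**Figure D2:**
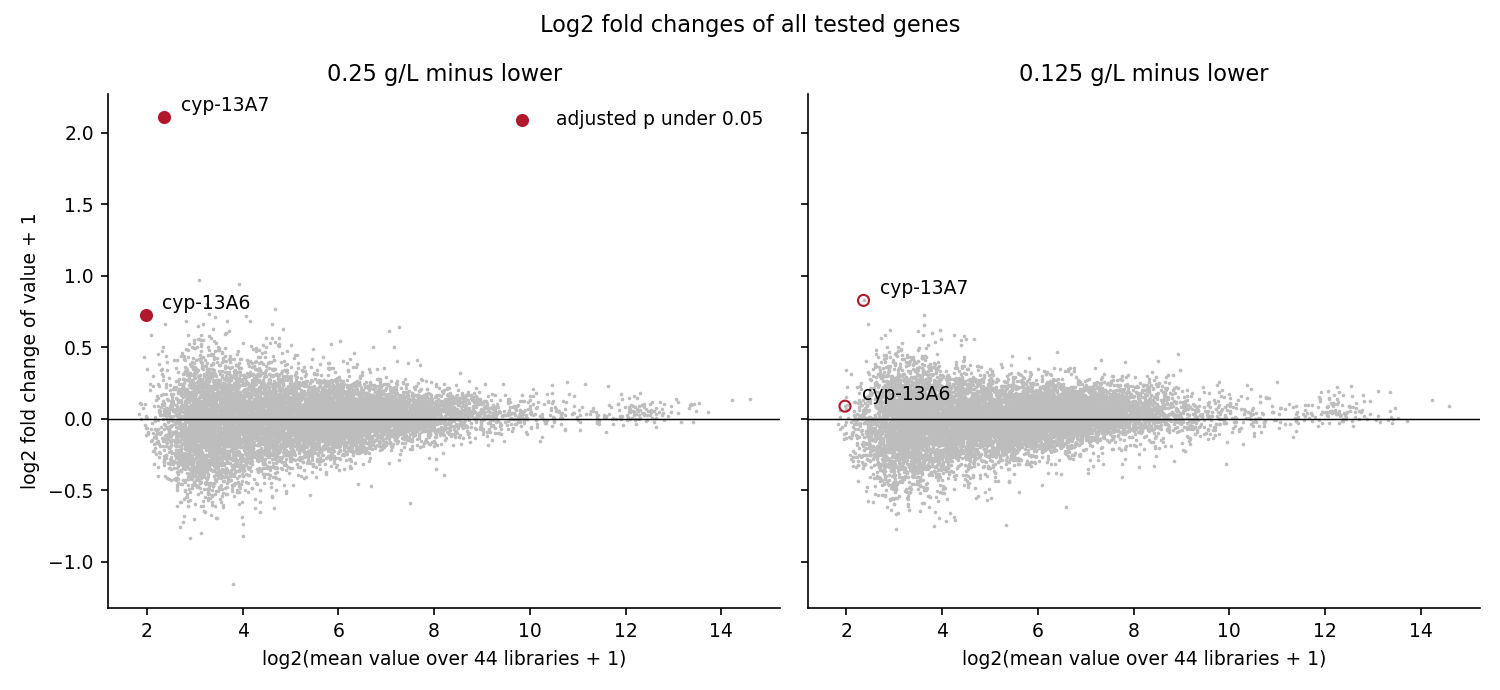
Log2 fold change of value + 1 for each of the 10293 tested genes at 0.25 g/L minus lower (left) and 0.125 g/L minus lower (right), against log2 of the mean value over 44 libraries plus 1; filled red points have a limma adjusted p under 0.05. At 0.25 g/L cyp-13A7 at 2.11 and cyp-13A6 at 0.73 are filled, and at 0.125 g/L both (open circles, 0.83 and 0.09) are not.

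The third comparison took 0.125 g/L by itself. No gene passed the threshold in limma (0 of 10293, 0.0% called), 226 genes had an unadjusted p under 0.05 (2.2%; 0.865% higher and 1.33% lower), and voom on the reads called 1 gene, cyp-13A7. The gene with the smallest p was cyp-13A7, with a mean of 6.19 ± 3.65 at 0.125 g/L (SD, n = 4), against 2.66 ± 0.46 in the lower libraries. Its log2 fold change was 0.83 ± 0.16 (SE; limma adjusted p = 0.0558), and a single exact permutation test gave p = 0.00112. This SE is pooled with the lower libraries, most of them at 0 reads, so it does not reflect the wider spread at 0.125 g/L. Against the 4 libraries at 0 g/L alone limma called 0 genes (487 at an unadjusted p under 0.05), where the log2 fold change of cyp-13A7 was 0.81 and its exact permutation p 0.0857. No gene had all 4 libraries at 0.125 g/L above, or all 4 below, the 36 lower libraries (0.0% each).

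The side of the threshold on which cyp-13A7 fell at 0.125 g/L depended on single libraries. It was called without 0.125 g/L replicate 2 (limma adjusted p = 0.000244), 0.125 g/L replicate 4 (0.0241), 15.6 mg/L replicate 4 (0.0135), 0.25 g/L replicate 1 (0.0380) or 0.25 g/L replicate 2 (0.0380), each leaving 1 called gene, except that ets-4 was the other called gene without 0.125 g/L replicate 4, which left 2. The ets-4 gene, of a transcription factor of the ETS family, had values of 7.40, 11.4, 9.56 and 18.5 at 0.125 g/L, against 12.0 to 27.1 in the lower libraries. Its log2 fold change over all libraries was -0.69 ± 0.17 (SE; limma adjusted p = 0.690).

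At 0.125 g/L cyp-13A6 had values of 3.27, 3.02, 2.48 and 2.83, within the range of the lower libraries. Its log2 fold change was 0.09 ± 0.12 (SE; limma adjusted p = 0.999), with a 95% interval of -0.16 to 0.34, and it rested on 4 reads.

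The fourth comparison set 0.25 g/L against 0.125 g/L, with no lower library in the difference. Again 1 gene was called (limma; 0.00972%), cyp-13A7, which was higher at 0.25 g/L by 1.28 ± 0.22 on the log2 scale (SE; limma adjusted p = 0.00352). At an unadjusted p under 0.05 there were 249 genes (2.42%), of which 136 were higher (1.32%) and 113 lower (1.1%). The values at 0.25 g/L, 10.3 to 21.0, and at 0.125 g/L, 2.60 to 10.4, overlapped, since 0.125 g/L replicate 3 was above 0.25 g/L replicate 1. The exact permutation p over these 8 libraries was 0.0571, where 4 against 4 cannot go below 0.0286. The reads, 50 at 0.25 g/L and 18 at 0.125 g/L, gave a ratio of 3.87 per unit of size factor (95% exact counting interval 2.22 to 7.05). The call was lost, leaving 0 genes, without 0.25 g/L replicate 2 (log2 difference 1.12), 0.125 g/L replicate 2 (1.00) or 0.125 g/L replicate 4 (1.14). It was also lost with a minimum value of 20 (limma adjusted p = 0.133), by voom with a term for the set of 12 sample numbers (adjusted p = 0.0730) and on reads over the size factor (limma adjusted p = 0.891, log2 difference 1.90). Without 0.25 g/L replicate 4 cyp-13A6 was called too, making 2. For cyp-13A6 over all libraries the difference was 0.64 ± 0.17 (SE; limma adjusted p = 0.837).

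Sets of 12 consecutive sample numbers, which no label calls a batch, each held at most 1 library of each of these concentrations, and the replicates fell in sets 1, 2, 3 and 5 in turn. Within these sets the log2 difference of cyp-13A7 between 0.25 g/L and lower was 1.67, 2.58, 2.23 and 1.89, positive in all 4. Between 0.125 g/L and lower it was 1.34, -0.03, 1.64 and 0.30. For cyp-13A6 at 0.25 g/L it was 0.76, 0.96, 1.12 and 0.06, smallest in set 5.

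The other 3 measured members of the cyp-13A cluster were not called in any of the 4 comparisons. The cyp-13A5 gene (II, 9798277 to 9800362) had 3.98, 5.44, 4.42 and 6.38 at 0.25 g/L and 3.14, 3.22, 2.54 and 3.42 at 0.125 g/L, against 2.33 to 7.18 in the lower libraries. The cyp-13A2 gene (II, 9783384 to 9787629) had 3.71 to 5.75 at 0.25 g/L and 2.50 to 3.26 at 0.125 g/L, against 2.66 to 9.86 in the lower libraries. Values of both genes lay within the range of the lower libraries at these concentrations, except that of cyp-13A2 in 0.125 g/L replicate 1, which was below it. At 0.125 g/L cyp-13A2 had a log2 fold change of -0.58 ± 0.20 (SE; unadjusted p = 0.00677, limma adjusted p = 0.999), opposite in sign to that of cyp-13A7. Its 5 reads there, against 108 in the lower libraries, gave a ratio of 0.312 per unit of size factor (95% exact counting interval 0.0993 to 0.751).

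Reads of cyp-13A4 (II, 9795756 to 9797740) were 1 at 0.25 g/L, 0 at 0.125 g/L and 0 in the 36 lower libraries. A count of 0 allows up to 3 reads among the 8695429 reads at 0.125 g/L, and up to 3 among the 56277762 reads of the lower libraries. The 5 genes are close relatives in a row, and how reads shared between such copies were counted is not given in the sources used here, so their separate levels are uncertain.

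Higher concentrations of the same series give the scale of these changes. Mean values of cyp-13A7 were 2.66 ± 0.46 in the lower libraries (SD, n = 36), 6.19 ± 3.65 at 0.125 g/L, 15.2 ± 4.57 at 0.25 g/L, 83.7 ± 17.3 at 0.5 g/L and 258 ± 69.5 at 1 g/L (SD, n = 4 each). Those of cyp-13A6 were 2.67 ± 0.31 in the lower libraries (SD, n = 36), 2.90 ± 0.33 at 0.125 g/L, 5.22 ± 1.58 at 0.25 g/L, 12.8 ± 2.71 at 0.5 g/L and 43.0 ± 7.10 at 1 g/L (SD, n = 4 each). Against the same 36 lower libraries, limma on 60 libraries called 6 genes at 0.5 g/L (0.0583%), all higher, and 22 higher and 5 lower genes at 1 g/L (0.262%).

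The 16 genes with the smallest p at 1 g/L are shown with their changes at the lower concentrations, and since all of these comparisons share the 36 lower libraries, the values stand side by side only. The UDP-glucuronosyltransferase genes ugt-62, ugt-19 and ugt-61 had log2 fold changes at 0.125, 0.25 and 1 g/L of 0.05, 0.28 and 1.44 for ugt-62, of 0.43, 0.26 and 1.76 for ugt-19, and of 0.21, 0.44 and 1.44 for ugt-61. None of these 3 was called at 0.125 or 0.25 g/L. The cadmium-responsive gene cdr-1 was at 0.10, 0.35 and 1.72, and the lipid-binding protein gene lbp-8 at 0.15, 0.02 and 1.16, also with no call at 0.125 or 0.25 g/L.

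**Figure D3:**
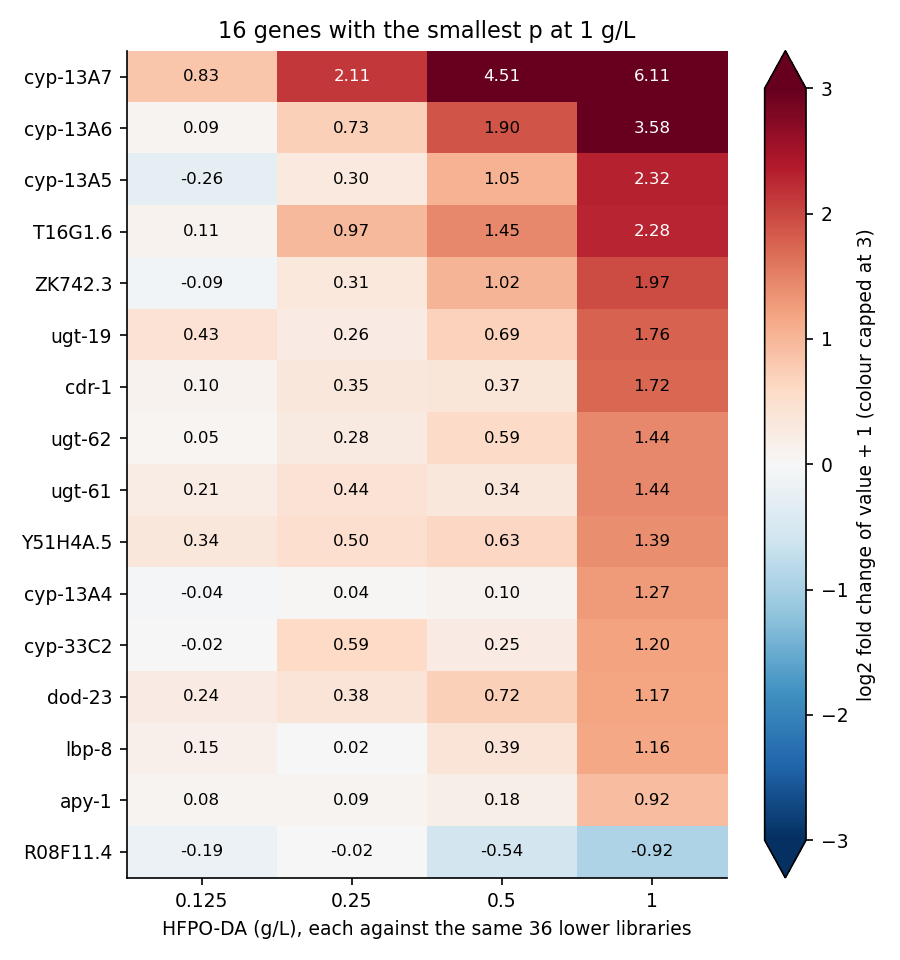
Log2 fold change of value + 1 against the same 36 lower libraries at 0.125, 0.25, 0.5 and 1 g/L HFPO-DA (columns) for the 16 genes with the smallest p at 1 g/L (rows), printed in each cell and coloured with a limit at 3. At 0.25 g/L the cells run from -0.02 for R08F11.4 to 2.11 for cyp-13A7.

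Outside the cyp-13A cluster, none of the other 37 gene lists had a called gene in any of the 4 comparisons. Among 29 other cytochrome P450 genes, 4 were higher at 0.25 g/L at an unadjusted p under 0.05, where 1.71% of all genes were, and 0 were lower. At 0.125 g/L 0 were higher and 1 lower (0.865% and 1.33% of all genes), and for both concentrations together 1 was higher and 3 were lower (1.58% and 1.53%). The median log2 fold change of the list was 0.09 at 0.25 g/L and -0.06 at 0.125 g/L, beside 0.01 for all genes at each. Among 37 UDP-glucuronosyltransferases the medians were 0.06 and 0.02, and ugt-16, with the smallest p for both concentrations together, averaged 6.43 ± 3.55 at these (SD, n = 8), against 4.04 ± 1.52 in the lower libraries (limma adjusted p = 1.00). At an unadjusted p under 0.05, 4 of the 37 were higher and 0 lower for both concentrations together (1.58% and 1.53% of all genes). These counts were 1 and 0 at 0.25 g/L (1.71% and 1.72%), and 3 and 0 at 0.125 g/L (0.865% and 1.33%). Among 27 glutathione S-transferases the medians were 0.10 and 0.00, and gst-6 averaged 20.8 ± 9.58, against 25.5 ± 5.97 in the lower libraries. The 5 flavin monooxygenases, which also oxidise foreign compounds, had medians of 0.22 and -0.05. The 42 ABC transporters had medians of 0.01 and 0.02, and the 89 nuclear hormone receptors, the sensors named above, 0.01 and 0.02.

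Lists of lipid metabolism showed no called gene. Medians at 0.25 and 0.125 g/L were 0.01 and -0.11 for 7 fatty acid desaturases, which introduce double bonds, and -0.02 and 0.08 for 13 genes of fatty acid synthesis and elongation. For 22 genes of mitochondrial fatty acid oxidation they were -0.01 and 0.02, and for 24 of peroxisomal oxidation 0.02 and 0.00. The 6 lipases, which release fatty acids from stored fat, had the lipid medians farthest from 0 at 0.25 g/L, 0.20 at 0.25 g/L and -0.04 at 0.125 g/L. The elongase gene elo-4 had the smallest p of its list and averaged 4.93 ± 1.54 at both concentrations together (SD, n = 8), against 7.14 ± 2.18 in the lower libraries (SD, n = 36; limma adjusted p = 1.00).

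Reproductive and cuticle genes likewise held no called member. The 6 vitellogenins, the yolk proteins made by the intestine, had medians of 0.14 at 0.25 g/L and 0.19 at 0.125 g/L, and vit-6 averaged 11339 ± 1978 at both together (SD, n = 8), against 10320 ± 1972 in the lower libraries. The 29 major sperm proteins had medians of -0.10 and -0.04. For 84 cuticle collagens the medians were 0.00 and -0.02, and for 11 body-shape collagens they were 0.12 and -0.26, with no call in either.

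Stress, immune, housekeeping and neuropeptide lists also held no called gene. Medians at 0.25 and 0.125 g/L were -0.01 and 0.04 for 11 heat shock proteins, 0.08 and 0.06 for 18 genes of endoplasmic reticulum stress, and 0.01 and -0.04 for 19 antioxidant enzymes. For 10 genes of the metal response they were 0.09 and -0.09, and mtl-1, a metallothionein gene, had a log2 fold change of -0.71 ± 0.30 at 0.125 g/L (SE; unadjusted p = 0.0212, limma adjusted p = 0.999). They were 0.06 and -0.01 for 52 antimicrobial effectors and -0.02 and 0.01 for 67 C-type lectins, sugar-binding proteins of which many serve in immunity. They were 0.03 and 0.05 for 61 ribosomal proteins, 0.07 and 0.04 for 30 proteasome subunits, and -0.01 and -0.07 for 85 neuropeptide genes.

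**Figure D4:**
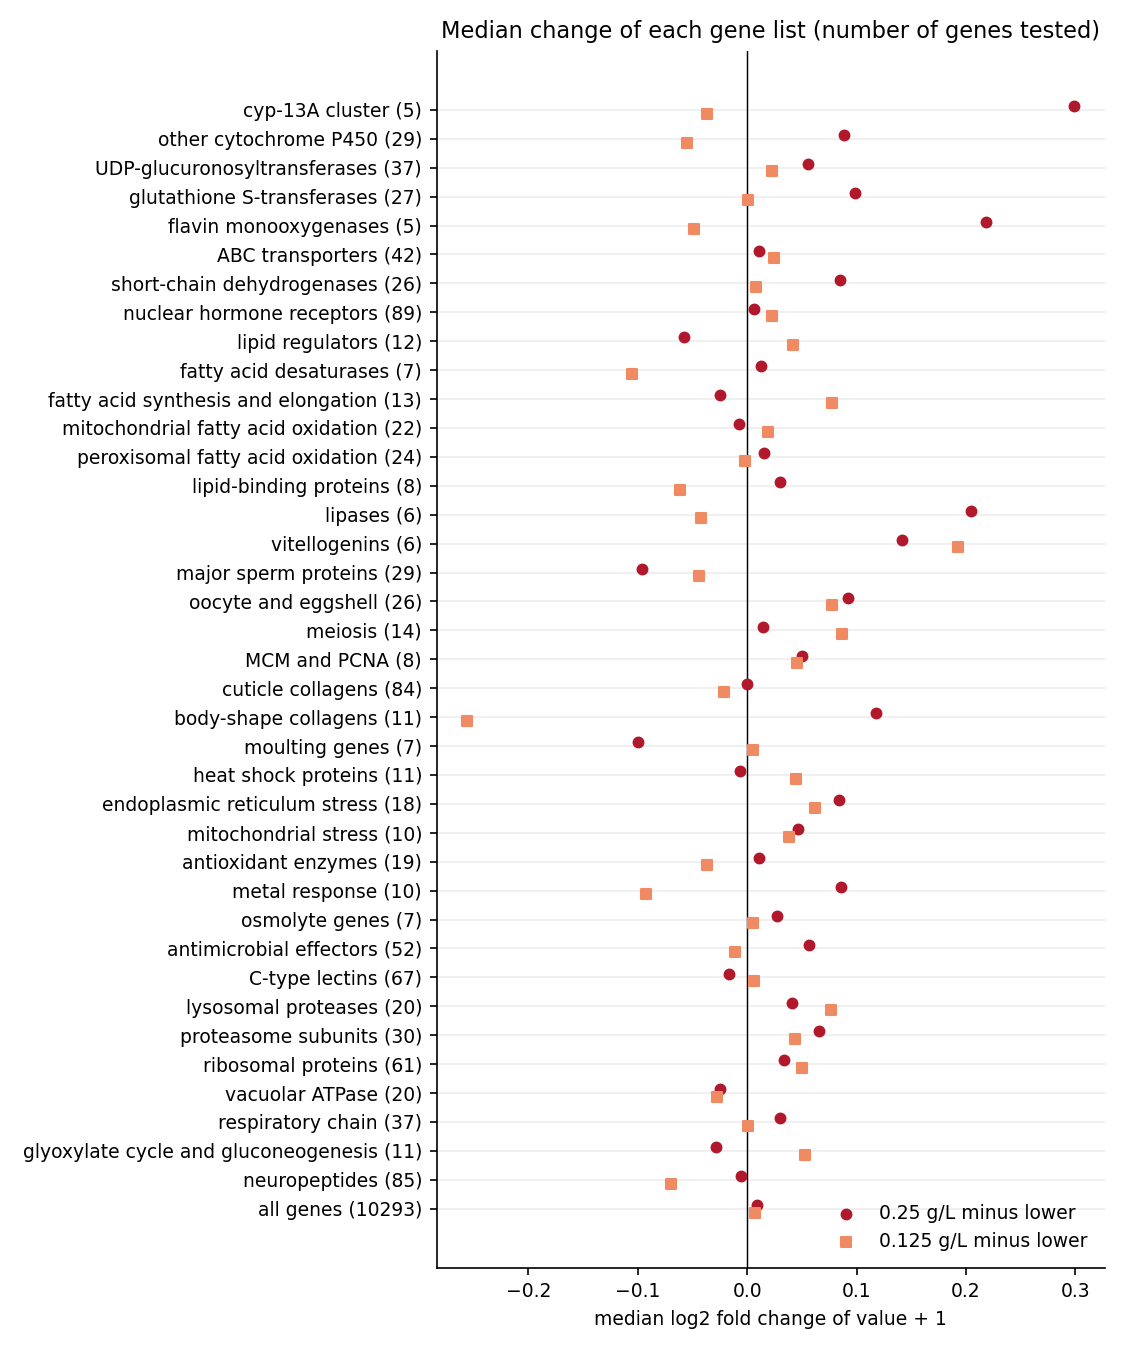
Median log2 fold change of value + 1 for each of 38 gene lists and for all 10293 genes (rows, number of genes tested in brackets) at 0.25 g/L minus lower (circles) and 0.125 g/L minus lower (squares). The medians run from -0.10 to 0.30 at 0.25 g/L, highest for the cyp-13A cluster, and from -0.26 to 0.19 at 0.125 g/L.

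Of named genes with a mean of at least 20, those with the smallest unadjusted p for both concentrations together were not called either. The 6 with positive changes were efsc-1, glrx-3, a glutaredoxin gene, rfc-2, of a replication factor C subunit, ist-1, best-19 and algn-3. The 6 with negative changes were cks-1, a regulator of cyclin-dependent kinases, tbc-3, daf-25, snrp-40.2, ubc-25 and edc-3. The glrx-3 values at both concentrations ran from 171 to 198, against 126 to 196 in the lower libraries, and those of cks-1 ran from 88.6 to 142, against 106 to 162. Their log2 fold changes were 0.17 ± 0.06 for glrx-3 and -0.23 ± 0.07 for cks-1 (SE; limma adjusted p = 1.00 for each), and the groups overlapped in each.

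The precision of the fits bounds what could have been missed. For both concentrations together the median standard error was 0.13, and the 95% interval of the log2 fold change lay inside a 1.5-fold change either way for 9483 of 10293 genes (92.1%) and inside a 2-fold change for 10285. For 0.25 g/L the interval lay inside 1.5-fold for 7463 genes and for 0.125 g/L for 7581. These intervals are on the scale of log2(value + 1), where a gene near 0 reads shows little of its change, as the reads of cyp-13A7 show.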

How the data were processed

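The deposited table holds normalised signal for 10298 genes in 60 libraries, made by the authors; the submitters' processing notes list the build WBcel235, the aligner STAR 2.7.10a, HTSeq 2.0.1 and edgeR 3.36.0, beside Trimmomatic 0.39 and UMI-tools 1.1.2. Each deposited signal value equals 1 plus a factor (0.445 to 3.18) for its gene and replicate number times 1 plus the reads over a size factor. Under this form 100% of 617880 values came out as whole reads within 0.0001 reads, 1.07% of them 0 (held as 0.5).

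Limma 3.58.1 (R 4.3.3) with an intensity trend was fitted to log2(value + 1) of 44 libraries with 3 means, on 10293 genes with a value of at least 5 in at least 4 of 60 libraries, with Benjamini-Hochberg adjustment and a threshold of 0.05. Of these genes, 10268 met that minimum within the 44 libraries compared. Exact permutation tests enumerated all splits; their p is 2 times the smaller tail, as in scipy 1.17.1, against which the enumeration was checked. Gene names and coordinates came from RefSeq, matching 10294 of 10298 identifiers. Named genes are those called, the 6 rising and 6 falling with the smallest p and a mean of at least 20, 16 called at 1 g/L, 2 per list and the cyp-13A genes; values are printed for some, and ZC247.2, K12D9.1, ets-4, mtl-1 and sdf-9 were chosen after their values were seen. The libraries, lists and tests were chosen with earlier results of these data known. Alternatives are given in the closing section; the limma fit to log2(reads over size factor + 1) was chosen after seeing the data.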

Additional observations from a re-analysis of the deposited data

Results flagged for a closer look

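Groups of 4 libraries were searched for a library far from the other 3, in 58 tests of which chance flags about 1 in 20, and 3 stood apart. The cdr-1 value in 0.25 g/L replicate 1 was 6.20, against 3.22 to 3.48 in the other libraries at 0.25 g/L. It rests on 4 reads, against 1, 1 and 2 in replicates 2 to 4. The T16G1.6 value in 0.125 g/L replicate 3 was 9.78, against 6.14 to 6.53 in the others at 0.125 g/L. The Y51H4A.5 value in 0.125 g/L replicate 3 was 9.21, against 12.5 to 13.2 in the others at 0.125 g/L. The change of cyp-13A7 differed between the concentrations, by 1.28 on the log2 scale for 0.25 g/L minus 0.125 g/L (limma adjusted p = 0.00352; exact permutation p = 0.0571).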

How the results depend on the processing

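Called genes numbered 1 for both concentrations against lower, 2 for 0.25 g/L, 0 for 0.125 g/L and 1 for 0.25 g/L against 0.125 g/L. With 0 g/L alone as the comparison group there were 0, 0 and 0 in the first 3, in a fit with fewer libraries. Without the intensity trend there were 2, 3, 1 and 2, the third at 0.25 g/L being cyp-33C2. Voom on reads gave 2, 4, 1 and 1, and with a term for the set of 12 sample numbers 1, 2, 0 and 0. Reads over the size factor, chosen after seeing the data, gave 2, 2, 0 and 0. A minimum value of 20 gave 1, 1, 0 and 0. All 60 libraries gave 1 call at 0.125 g/L, as did leaving out the 15.6 mg/L group. Leaving out 1 library at a time gave 1 to 2, 1 to 2, 0 to 2 and 0 to 2. The cause of these differences was not tested. The replicate block gave 1, 2, 0 and 1. The deposited values already carry the authors' factor per gene and replicate number, so these counts cannot show whether replicate numbers matter. Same-numbered libraries at 0.25 and 0.125 g/L had deviations correlated at 0.03, 0.32, 0.19 and 0.22 in replicates 1 to 4. On reads, without that factor, the correlations were 0.22, 0.55, 0.08 and 0.39. On deposited values 3 of 4 libraries at 0.25 g/L matched their own number at 0.125 g/L best, a hint of pairing between these concentrations. On deposited values same-numbered lower libraries went the other way, and none was the best match. The authors' factor is shared by every library of a replicate number, so these signs cannot decide for or against pairing. No correlation on reads is given here for the lower libraries. The correlations of same-numbered lower libraries on deposited values were -0.33, -0.38, -0.26 and -0.27 with 0.25 g/L, and -0.36, -0.47, -0.31 and -0.37 with 0.125 g/L. The numbers were not taken as pairing because no label ties them. Between 0.25 and 0.125 g/L, 1 pair on values and 1 on reads was also below the 0.1 required of every pair. Uncalled changes near 0 turned sign for both concentrations against lower: cyp-13A5 was -0.176 against 0 g/L, -0.0190 without the 12.5 µg/L group and -0.0302 to 0.0645 without 1 library; ZK742.3 was -0.0647 against 0 g/L. For cyp-13A4 the values were -0.00118 against 0 g/L, -0.0203 with the set term, -0.00186 after median ratio rescaling, -0.146 by voom with the set term, -0.00328 without the 62.5 mg/L group, and -0.00127, -0.00611 and -0.00219 without those at 313, 62.5 and 12.5 µg/L; without 1 library they ran from -0.0281 to 0.0236. Read depth limits genes near 0 reads.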

Other observations

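The gene with the lowest log2 fold change at 0.25 g/L was sdf-9, of a protein similar to tyrosine phosphatases. It averaged 4.82 ± 1.81 at 0.25 g/L (SD, n = 4), against 13.1 ± 6.99 in the lower libraries (SD, n = 36). The change was -1.16 ± 0.33 on the log2 scale (SE; limma adjusted p = 0.826). At 0.125 g/L it averaged 18.7 ± 5.57 (SD, n = 4), a change of 0.60 ± 0.33 on the log2 scale (SE; limma adjusted p = 0.999). The difference between the concentrations was -1.76 ± 0.45 (SE; limma adjusted p = 0.837).

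The median of the 29 major sperm proteins for both concentrations against lower was -0.07, and 0.07 with a term for the set of 12 sample numbers. That of the 7 fatty acid desaturases was -0.09, and 0.01 with the same term.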
